A study of Bos indicus with 5 samples.

Results

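The immediate early genes are a set of 10 fast-response genes: FOS, FOSB, JUN, JUNB, JUND, EGR1, EGR2, EGR3, ATF3 and IER2. They were picked by symbol from a table of 24616 genes measured in the ampulla, the section of the oviduct where fertilization takes place, and 9 of the 10 were found. JUND was not analysed here. A mean value over 5 normalized reads, the limit for entering the test, was passed by 8 of them, and EGR3 fell short of it. The question asked was whether the abundance of these transcripts differed between cows that ovulated a large and a small follicle.

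RNA sequencing was done on ampulla from multiparous Nelore (Bos indicus) cows, each library coming from a different animal. All cows received a GnRH agonist and a prostaglandin (PGF) to align their cycles, a progesterone device with estradiol benzoate, more PGF when the device came out, and a GnRH agonist to induce ovulation. The LF/LCL cows (2 libraries), treated to grow a large follicle and then a large corpus luteum, had the device removed 42 h before that GnRH injection and an extra PGF injection at device insertion. In the SF/SCL cows (3 libraries), treated to give small ones, it came out 30 h before. The sequenced cows were those at the extremes of their group for follicle size, corpus luteum area and hormone levels, and the study discarded a further LF/LCL library for poor quality. All were killed on day 4 by captive bolt and bleeding, the tracts were carried on ice, and full-thickness tissue was frozen. The study dissected the tracts within minutes of slaughter and judged the RNA of all samples intact enough for sequencing. The interval from death to freezing of each cow was not given in the sources used here.

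Immediate early genes are switched on within minutes when a cell receives a growth factor, a mechanical stimulus or a stress, without the need for new protein. Signals through MAP kinases act on factors already bound to the DNA, such as SRF with its ELK partners and CREB. The products are mostly transcription factors themselves. FOS and JUN proteins pair to form AP-1, EGR proteins are zinc finger factors, ATF3 is a stress-induced bZIP factor that can pair with JUN proteins, and IER2 is a small nuclear protein induced at the same time. Their messengers are short-lived, and they also respond to hypoxia and to tissue handling after death.

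The libraries held from 13418278 to 19592174 reads assigned to genes. Markers of oviduct epithelium were read beside the label ampulla, but without isthmus values they cannot check the region. OVGP1, the oviduct glycoprotein of secretory cells, ran from 117179 to 147247 normalized reads, and FOXJ1, the regulator of motile cilia, from 8481 to 12698. As the tissue was taken as a whole, fewer cells of a type and less RNA per cell cannot be told apart. Values below are normalized reads, which are read counts divided by a size factor per library, and levels were not compared between genes because no transcript lengths were used.

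FOS, the inducible partner of JUN in AP-1, varied most of the 8 tested between cows of the same treatment. Its level, in normalized reads by replicate number, was 575 and 107 in the LF/LCL cows, against 59.3, 431 and 158 in the SF/SCL cows. The highest library thus held 9.70 times the lowest, and each group contained a high and a low cow. Counting error does not cover this range, as the exact Poisson 95% interval was 525 to 628 in LF/LCL replicate 1 and 44.9 to 76.8 in SF/SCL replicate 1. These intervals cover counting error only, and they are too narrow where amplified reads are not independent molecules.

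EGR1, a zinc finger factor that responds to the same signals, showed the same order of cows as FOS. It had 497 and 139 normalized reads in LF/LCL, against 131, 359.8 and 278 in SF/SCL. LF/LCL replicate 1 and SF/SCL replicate 2 were again the highest and SF/SCL replicate 1 the lowest, with a ratio of 3.8 between the extremes. The order of all 5 libraries was the same for FOS and EGR1 with the deposited size factors, with TMM scaling and with library size scaling. Of all genes tested, 0.62% had this order of the 5 libraries. This order was singled out after its values were seen and is given as a description.

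The JUN family was far steadier. JUN, the constant core of AP-1, had 2236 and 2149.8 normalized reads in LF/LCL, against 1612, 1567 and 2214 in SF/SCL. The LF/LCL libraries and SF/SCL replicate 3 lay close together, and the other SF/SCL libraries were lower. JUNB, a JUN relative with weaker activity, had 537 and 475 in LF/LCL, against 325, 466 and 537 in SF/SCL. Only SF/SCL replicate 1 stood below the rest, and the groups overlapped for JUN and for JUNB. The highest library held 1.43 times the lowest for JUN and 1.65 times for JUNB.

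IER2 was the one tested member whose groups did not overlap. It had 846 and 817 normalized reads in LF/LCL, against 539, 685 and 665 in SF/SCL. ATF3 had 323 and 432 in LF/LCL, against 265, 393 and 219 in SF/SCL, so that the groups overlapped through SF/SCL replicate 2. Its highest library, LF/LCL replicate 2, was among the low libraries for FOS.

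FOSB, EGR2 and EGR3 were measured from few reads. FOSB, the FOS relative that shares its dimer partners, had 16.4 and 31.9 normalized reads in LF/LCL, against 23.9, 38.1 and 20.4 in SF/SCL. FOSB was lowest in LF/LCL replicate 1, the library in which FOS was highest. Its lowest and highest values rest on 14 and 49 reads, with exact Poisson 95% intervals of 8.98 to 27.5 and 28.2 to 50.3. EGR2, known for its part in myelin and immune cells, had 4.69 and 8.71 in LF/LCL, against 6.24, 20.2 and 4.29 in SF/SCL. Only SF/SCL replicate 2 stood out, with 26 reads against 4 to 9 in the others. EGR3 had 5.86 and 3.87 in LF/LCL, against 0, 3.11 and 1.07 in SF/SCL. These values of EGR3 rest on 0 to 5 reads, and a count of 0 in SF/SCL replicate 1 allows up to 3 reads, or 3.12 normalized reads, so that a difference was not detectable at this depth although the groups did not overlap.

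**Figure D1:**
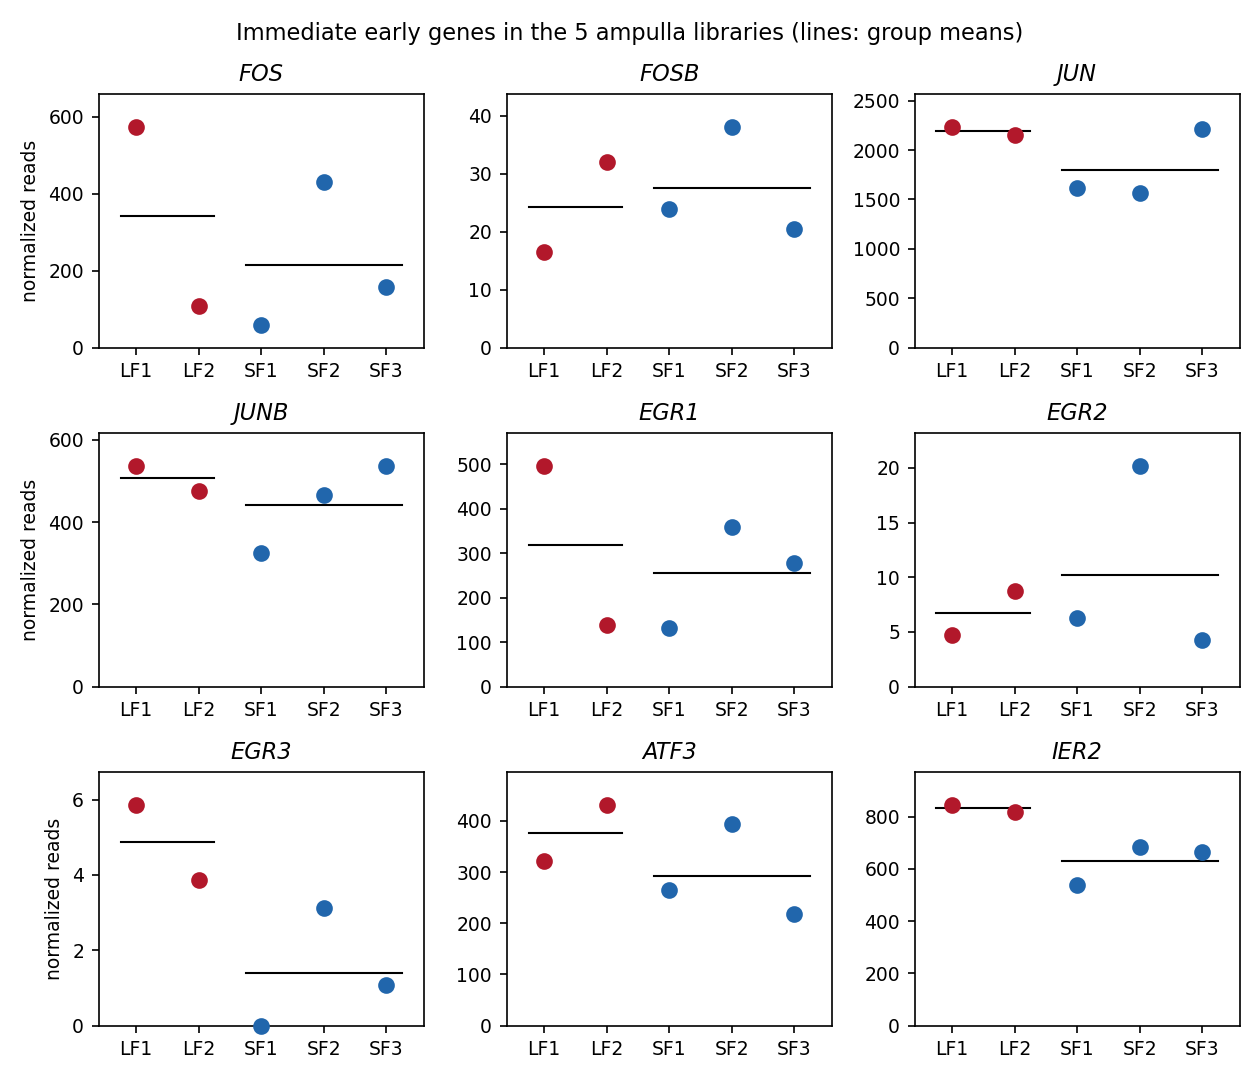
Normalized reads of the 9 immediate early genes (vertical axes, linear from 0) in each library (LF1 and LF2, LF/LCL replicates in red; SF1 to SF3, SF/SCL replicates in blue), with the group means as lines. FOS and EGR1 were high in LF1 and SF2 and low in LF2 and SF1, while JUN and JUNB lay within 1.43 and 1.65 times over all 5 libraries.

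Set against its own mean, each gene shows which cow stood apart. On the log2(value + 1) scale FOS deviated by 1.59 in LF/LCL replicate 1 and by 1.17 in SF/SCL replicate 2, and by -1.67 in SF/SCL replicate 1. EGR1 deviated by 1.01, 0.54 and -0.91 in the same libraries. SF/SCL replicate 1 was below the mean for each of the 8 genes tested, from -1.67 for FOS to -0.06 for FOSB. LF/LCL replicate 1 held the highest value of 5 of the 8 members tested (62.5%), where it held the highest value of 21.9% of all genes tested. With library size scaling JUN and JUNB were highest in SF/SCL replicate 3 instead. The set did not move as a block. In SF/SCL replicate 2 JUN deviated by -0.30, against 1.17 for FOS. In LF/LCL replicate 2 ATF3 deviated by 0.45, against -0.82 for FOS. FOSB and EGR2 deviated by -0.58 in LF/LCL replicate 1, but these values rest on 14 and 4 reads. Their exact Poisson intervals, 8.98 to 27.5 and 1.28 to 12.0 normalized reads, include the gene means of 26.1 and 8.83. Counting error thus covers the FOSB and EGR2 deviations in that library.

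**Figure D2:**
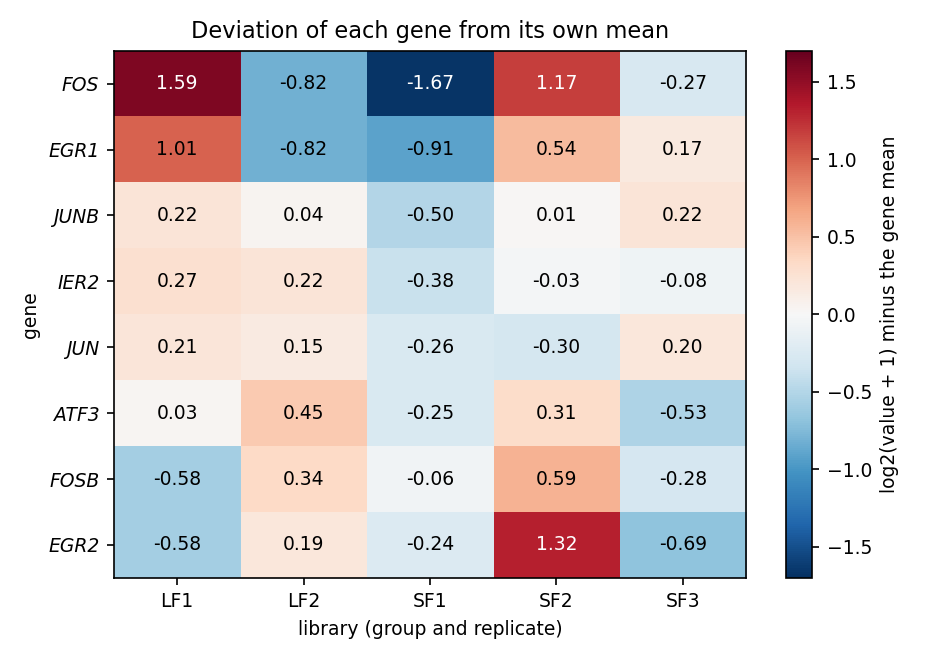
Deviation of each tested gene (rows) from its own mean over the 5 libraries (columns), as log2(value + 1), with the value printed in each cell and the colour scale from blue (below the mean) to red (above). FOS and EGR1 carry the widest deviations in LF1 and SF1, whereas JUN, JUNB and IER2 stay between -0.50 and 0.27.

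The spread between cows was compared with that of all genes. FOS had an SD of log2(value + 1) of 1.36 over the 5 libraries and EGR1 of 0.84. Among the 3321 genes tested with a mean from 200 to under 500 normalized reads the median SD was 0.22, and 98.6% of them had a smaller SD than FOS and 96.1% a smaller SD than EGR1. ATF3 (SD 0.40) and JUNB (SD 0.30) have means in the same range, and 79.4% and 67.2% of these genes had a smaller SD. JUN had an SD of 0.26 and IER2 of 0.26, against medians of 0.16 and 0.18 for genes of their level. FOSB (SD 0.47) and EGR2 (SD 0.81) were below the medians of genes with as few reads, which were 0.61 and 0.88. Within groups the pooled SD was 1.52 for FOS and 0.97 for EGR1, not smaller than over all 5 libraries.

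**Figure D3:**
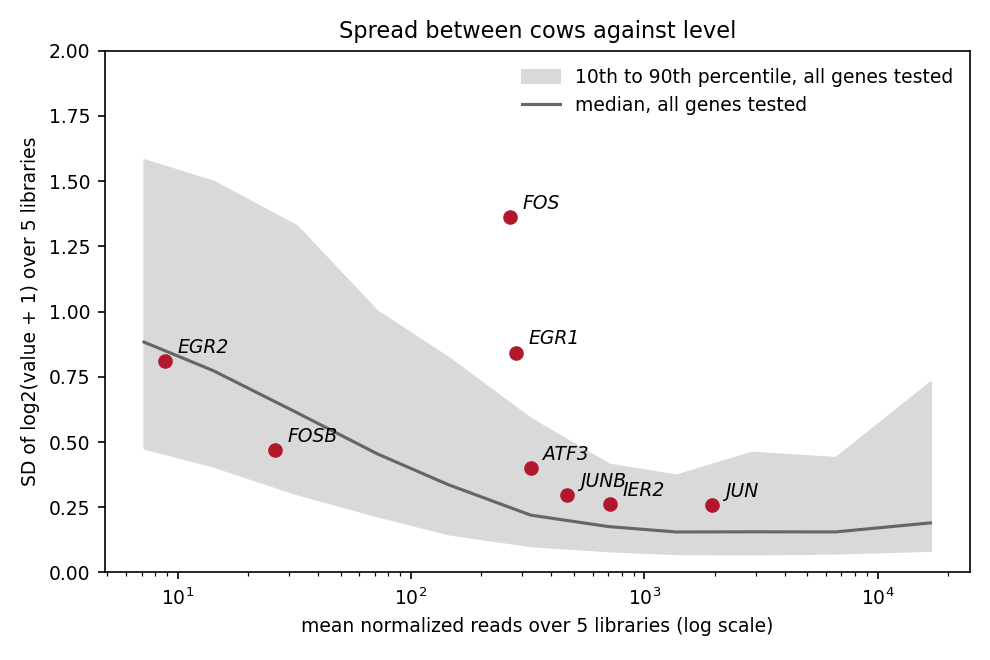
SD of log2(value + 1) over the 5 libraries (vertical axis) against the mean normalized reads (horizontal axis, log scale) for the 8 tested immediate early genes (red), with the median (line) and the 10th to 90th percentiles (grey) of all 15815 genes tested. FOS (1.36) and EGR1 (0.84) lie above the grey band, and the other 6 genes lie within it.

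No immediate early gene passed the test of the group difference. By limma, 0 of 8 members tested had an adjusted p under 0.05 (Benjamini-Hochberg over 15815 genes), where the share over all genes tested was 0.0%. The edgeR quasi-likelihood test, limma-voom and DESeq2 on the recovered reads also called 0 of 8, and DESeq2 called 2.89% of all genes. At an unadjusted p under 0.05 each of the 4 tools found 1 member, IER2, which is 12.5% of those tested, beside 11.5% of all genes with limma, 11.6% with edgeR, 12.7% with DESeq2 and 11.2% with limma-voom. The groups did not overlap in 1 of 8, again IER2, beside 30.1% of all genes tested. The log2 change was above 0 in 6 of the 8, beside 50.8% of all genes, and its median over the 8 was 0.26, beside 0.01 over all genes.

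IER2 averaged 831 ± 20.2 normalized reads in the LF/LCL cows (SD, n = 2), against 629.5 ± 79.4 (SD, n = 3) in SF/SCL. Its log2 change (LF/LCL minus SF/SCL, on log2(value + 1), as for all changes given here) was 0.41 (SE 0.14) at an adjusted p of 0.377 by limma. Over 15 alternative settings the log2 change of IER2 ran from 0.30 to 0.47 and its adjusted p from 0.296 to 0.703. Without LF/LCL replicate 1, LF/LCL replicate 2 or SF/SCL replicate 1 the unadjusted p of IER2 was also above 0.05.

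The smooth muscle markers, which include ACTA2, MYH11 and DES, had positive log2 changes in 13 of 13, and the groups did not overlap in 11 of 13 (84.6%), beside 30.1% of all genes tested. Their summed level over 13 entries was 145699 and 79052 normalized reads in LF/LCL, against 53216, 55321 and 27402 in SF/SCL, and the median log2 change of the 13 was 1.26. Of the 18 ciliated cell marker entries tested 0 had a positive log2 change, with a median of -0.41 and no overlap of the groups in 14 (77.8%), and their summed level was 61875.5 to 78665.5 in LF/LCL, against 92304 to 95743 in SF/SCL. Median log2 changes were 0.40 for 11 secretory, 0.78 for 12 stromal fibroblast, 0.10 for 11 endothelial and 0.45 for 20 immune cell markers, and the summed stromal level was highest in LF/LCL replicate 1, at 96146. With limma and edgeR 0 markers of these 6 cell types had an adjusted p under 0.05, where the share over all genes was 0.0%. DESeq2 called 5 of 13 smooth muscle, 3 of 18 ciliated and 2 of 11 secretory entries. It also called 0 of 12 stromal, 1 of 11 endothelial and 1 of 20 immune entries, beside 2.89% of all genes. An unadjusted limma p under 0.05 was found for 10 smooth muscle, 12 ciliated, 5 secretory, 0 stromal, 1 endothelial and 6 immune cell markers. These counts are 76.9%, 66.7%, 45.5%, 0%, 9.09% and 30% of the markers tested, beside 11.5% of all genes. The part of any cell type in the IER2, FOS and EGR1 values was not tested.

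FOS averaged 341 ± 330.4 normalized reads in the LF/LCL cows (SD, n = 2), against 216 ± 192 (SD, n = 3) in SF/SCL, a log2 change of 0.64 (SE 1.02) at an adjusted p of 0.862 by limma. The 95% interval ran from a ratio of 0.272 to one of 8.91, which leaves room for a group difference in FOS of either sign. EGR1 had 318 ± 253 and 256 ± 116, a log2 change of 0.16 (SE 0.65) with an interval from 0.363 to 3.43 in ratio. Single cows set the sign of both. Without LF/LCL replicate 1 the log2 change was -0.57 for FOS and -0.76 for EGR1, and without LF/LCL replicate 2 it was 1.84 and 1.07. Without SF/SCL replicate 1 it was -0.07 for FOS and -0.26 for EGR1.

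The steadier genes allowed narrower bounds. JUN had a log2 change of 0.30 (SE 0.17), with an interval of 0.927 to 1.65 in ratio, and JUNB of 0.22 (SE 0.23), with 0.790 to 1.72. ATF3 had 0.39 (SE 0.28), with 0.815 to 2.12. Without SF/SCL replicate 3 the log2 change of JUN was 0.46, at an unadjusted limma p of 0.00567 and an adjusted p of 0.368. Without SF/SCL replicate 2 that of ATF3 was 0.63, at an unadjusted limma p of 0.0377 and an adjusted p of 0.448. In both cases the library left out was the one through which the groups overlapped. The low genes FOSB (-0.20, SE 0.51) and EGR2 (-0.33, SE 0.81) were uncertain in sign, which turned for FOSB and EGR2 without LF/LCL replicate 1 and without SF/SCL replicate 2.

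**Figure D4:**
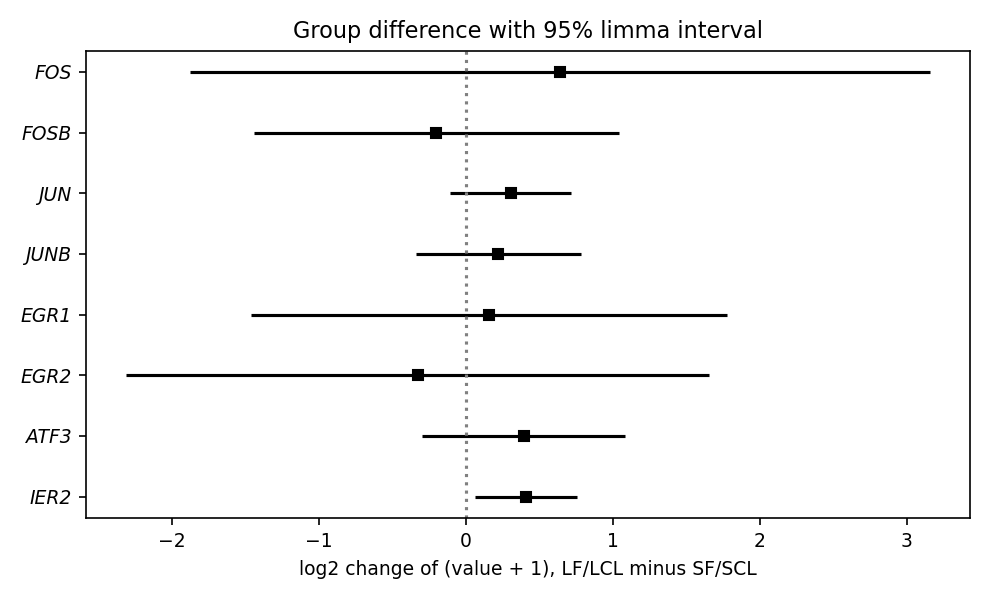
Log2 change of (value + 1), LF/LCL minus SF/SCL (horizontal axis), for the 8 tested immediate early genes, with squares for the estimate and bars for the 95% interval of the limma fit. The interval of FOS spans -1.88 to 3.15, and only that of IER2, 0.06 to 0.76, leaves out 0 before adjustment over all genes.

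Of the blood transcripts, those of haemoglobin alpha were highest in the same 2 libraries as FOS and EGR1. The 2 entries listed as HBA, the alpha chain of haemoglobin, summed to 504 and 65.8 normalized reads in LF/LCL, against 21.8, 234 and 16.1 in SF/SCL. LF/LCL replicate 1 and SF/SCL replicate 2 were thus highest for HBA, FOS and EGR1 alike, while SF/SCL replicate 3 was lowest for HBA and in the middle for FOS. The HBA entries are near-identical copies whose reads may be split or lost. Of the 6 blood marker entries, 3 were tested, ALAS2 was at 0 in every library, and HBB and HBM held at most 2.35 normalized reads in any library. AHSP, the chaperone of that chain, did not follow, with 21.1 and 24.2 in LF/LCL, against 10.4, 21.8 and 23.6 in SF/SCL. The part of blood in the FOS and EGR1 values was not tested.

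The proteins that can pair with FOS and JUN were tested as a list of 25 genes, of which 21 were found and 19 tested. None had an adjusted p under 0.05 with limma, edgeR or DESeq2, and 2 (10.5%, beside 11.5% of all genes tested) had an unadjusted limma p under 0.05. They were ATF5, a stress-related bZIP factor, with a log2 change of -0.48 (SE 0.17), and CREM, a relative of CREB, with -0.68 (SE 0.26). FOSL2, the FOS relative that lacks a strong activation domain, had 1539 and 1534 normalized reads in LF/LCL, against 2051, 1634 and 2003 in SF/SCL. Its log2 change was -0.30 (SE 0.13) at an adjusted p of 0.46 by limma. The groups did not overlap in 4 of the 19, FOSL2 among them (21.1%, beside 30.1% of all genes tested). ATF4 and NFE2L2, which had the most reads of the list without regard to length and direct the amino acid and oxidative stress responses, had log2 changes of 0.11 (SE 0.11) and 0.08 (SE 0.11). FOSL1 had a value above 0 in SF/SCL replicate 2 only, at 1.55. The median log2 change of the 19 was -0.02, beside 0.01 over all genes tested.

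The kinases and factors that switch these genes on made a list of 36. All 36 listed MAP kinase steps and transcription factors were found and tested, and 0 had an adjusted p under 0.05 with limma, edgeR or DESeq2. An unadjusted limma p under 0.05 was found for 3 (8.33%, beside 11.5% of all genes tested). MAPK10, a JUN N-terminal kinase, had a log2 change of -0.47 (SE 0.12), MKL1, an actin-sensing partner of SRF, of 0.33 (SE 0.12), and MAPK3 (ERK1) of 0.30 (SE 0.11). MAPK10 stands in a gene list that the study drew from these libraries. MAPK14 (p38 alpha) and RPS6KA1, with the most reads of the list without regard to length, had -0.03 (SE 0.11) and 0.10 (SE 0.10). The median of the 36 was 0.03, and their summed level was 25946 to 27550 normalized reads in LF/LCL, against 26025 to 26121 in SF/SCL.

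The feedback inhibitors, which end the response, numbered 22, all tested. With limma and edgeR 0 had an adjusted p under 0.05 and 2 (9.09%, beside 11.5% of all genes tested) had an unadjusted limma p under 0.05. DESeq2 called 2, beside 2.89% of all genes. SPRY4, an inhibitor of receptor signalling to MAP kinases, had 853 and 789 normalized reads in LF/LCL, against 1147, 1198 and 1291 in SF/SCL. Its log2 change was -0.56 (SE 0.11), with an adjusted p of 0.222 by limma and 0.00628 by DESeq2. NAB2, the corepressor that binds EGR proteins, had 1306 and 1293 in LF/LCL, against 941, 914 and 815 in SF/SCL. Its log2 change was 0.55 (SE 0.11), with an adjusted p of 0.235 by limma and 0.00958 by DESeq2. The groups did not overlap in 7 of the 22 (31.8%, beside 30.1% of all genes tested), SPRY4 and NAB2 among them. SPRY4 and NAB2 stand in gene lists that the study drew from these libraries, so that their direction is not independent evidence. ZFP36L1, a factor that speeds the decay of short-lived messengers, had 0.47 (SE 0.20), and DUSP1, a MAP kinase phosphatase that is itself induced early, had -0.20 (SE 0.25).

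A wider list of 51 other early response genes, of which 47 were found and 45 tested, was read for the same pattern. With limma 0 had an adjusted p under 0.05 and 8 an unadjusted one, 4 in each direction (17.8%, beside 11.5% of all genes tested). DESeq2 called 3, beside 2.89% of all genes, GEM with higher values in LF/LCL and MYC and SGK1 with lower ones, and edgeR called 0. GEM, a small GTPase, had a log2 change of 0.64 (SE 0.15), MYC, the growth regulator, of -1.13 (SE 0.30), and BHLHE40, a clock-related repressor, of 0.94 (SE 0.27). GEM and MYC were also listed by the study from these libraries, and SGK1 is named for its DESeq2 call.

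The pair of libraries highest for FOS and EGR1 was also the highest pair for part of the list. The genes with their 2 highest values in LF/LCL replicate 1 and SF/SCL replicate 2 were NR4A1, NR4A2, CYR61, CTGF, GADD45A and MAFF, which is 6 of 45 (13.3%), beside 8.06% of all genes tested. They are named after their values were seen. CYR61, a matrix protein induced by growth factors, had 747 and 257 normalized reads in LF/LCL, against 374, 636 and 373 in SF/SCL. NR4A1, an orphan nuclear receptor, had 379 and 191 in LF/LCL, against 183, 282 and 192 in SF/SCL.

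Another library led much of the list. SF/SCL replicate 3 held the highest value of 22 of the 45 genes (48.9%), beside 23.7% of all genes tested, and of 0 of the 8 immediate early genes tested (of JUN and JUNB with library size scaling). Heat shock genes, which respond to protein stress, had groups that did not overlap in 9 of 19 (47.4%, beside 30.1% of all genes tested), 8 of them with the SF/SCL values above and 1 with the LF/LCL values above. With limma and edgeR 0 of the 19 had an adjusted p under 0.05, and DESeq2 called 2, beside 2.89% of all genes. Their summed level over 19 entries was 123432 and 130962 normalized reads in LF/LCL, against 154064, 148533 and 168715 in SF/SCL, and the 4 with an unadjusted limma p under 0.05 (21.1%, beside 11.5% of all genes), HSPA1A, HSPH1, HSPA8 and DNAJA4, had negative log2 changes. HSPA1A, HSPH1 and DNAJA4 stand in a gene list that the study drew from these libraries. HSPA1A had a log2 change of -0.99 (SE 0.16) at an adjusted p of 0.183 by limma. The study also chose HSPA1A for PCR, which gave no significant effect of group over ampulla and isthmus together, in more cows. In ampulla alone its PCR values were also higher in SF/SCL, without reaching significance. Near-identical copies of HSPA1A may split or lose its reads, and the part of the heat shock genes in the values of the immediate early genes was not tested.

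The genes whose profile over the 5 libraries lay nearest to that of FOS were sought among 11946 genes with a symbol and a mean of at least 50, by the root mean square difference of centred log2(value + 1). They were SALL1 (0.45), RERG (0.50), CAPN6 (0.54), TMEM130 (0.55) and ITIH5 (0.58). EGR1 differed from FOS by 0.55, and 3 of the 11946 genes were nearer. The other 6 members tested were farther, from 1.05 (JUNB) to 1.34 (FOSB). Of the 11946 genes, 480 were nearer to FOS than JUNB, 816 than IER2 and 2591 than ATF3. For JUN, EGR2 and FOSB 3988, 7326 and 9724 were nearer. The measure depends on the size of the changes as well as on their order, so that steady genes lie far from FOS in any order. SALL1 had 371 and 129 normalized reads in LF/LCL, against 55.1, 214 and 101 in SF/SCL. The median profile of the 8 members was nearest to RELL1 (0.03), GAREM (0.07), RBM3 (0.07), TLCD1 (0.08) and C2orf54 (0.08), but the members themselves differed from it by 0.21 (IER2) to 1.02 (FOS), so that it stands for few of them.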

How the data were processed

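The authors made polyA libraries, aligned read pairs with TopHat2 2.0.8 and Bowtie2 2.1.0 to the masked Bos taurus UMD 3.1 assembly, and counted unique, unambiguous reads per Ensembl gene with HTSeq 0.5.4p2. Use of strand was not stated, and near-identical or overlapping genes may split or lose reads. The deposited values are a normalized signal, the read count divided by a size factor from DESeq 1.12.1. Whole reads were recovered for 100% of nonzero values (within 0.01 read), with 13418278 to 19592174 reads per library. The members and gene lists were chosen with earlier results of these data known. The main test was limma 3.58.1 on log2(value + 1), with trend and robust estimation, two-sided, over genes with a mean over 5, adjusted by the Benjamini-Hochberg method. Alternatives used edgeR 4.0.16, DESeq2 1.42.0 and limma-voom on the recovered reads, other scalings, pseudocounts, filters and variance estimates, and each library left out. The limma fit was tested on simulated counts with known changes, but the outcome is not given here. How large a change 2 against 3 libraries could detect is thus not stated. Replicate numbers follow accession order. P-values set the group difference against the spread between cows within groups, which the fits estimate with the help of all genes. The cows were picked at the extremes of their groups, so that this spread need not be that of all treated cows. Named genes are the members, the 3 list genes with the smallest p, the 2 with the most reads of the AP-1 partner, feedback and upstream lists, and the 5 nearest profiles. Genes outside this rule (SGK1, FOSL1, DNAJA4, the FOS-like early response genes, the cell type and blood markers, and those of the other observations) were chosen after their values were seen. Levels per kilobase were planned but not computed, because the supplied gene table gives spans of another assembly with introns.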

Additional observations from a re-analysis of the deposited data

How the results depend on the processing

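The count of 0 members with an adjusted p under 0.05 stayed at 0 under all 15 alternatives. The count of 1 at an unadjusted p became 0 with plain estimation and ran from 0 to 2 over the fits without 1 library. The count of 1 whose groups do not overlap ran from 1 to 6 over the same fits. It was 6 without LF/LCL replicate 2, which leaves 1 library in that group, and 3 without SF/SCL replicate 3. The share of all genes without overlap is not given for these fits. Fewer libraries overlap less readily, so the 30.1% of all genes with 2 against 3 libraries is no measure for these counts. The counts of 6 and 3 thus do not set the members apart. Without SF/SCL replicates 1, 2 and 3 an unadjusted limma p under 0.05 was found for 0, 2 and 2 members. Beside them stood 1600 of 15841, 1656 of 15801 and 1496 of 15823 genes tested. Fits without an LF/LCL library assume that the lone library varies like the SF/SCL group. Of 80 member log2 changes under the other alternatives 0 turned sign, and of 40 without 1 library 8 did. They ran from -0.565 to 1.84 for FOS, -0.755 to 1.07 for EGR1, -0.659 to 0.26 for FOSB and -0.737 to 0.264 for EGR2. DESeq2, which called 2.89% of all genes, moved the counts of several lists up from 0. They became 3 of 45 for other early response genes, 2 of 22 for feedback inhibitors and 2 of 19 for heat shock genes. For cell types they became 5 of 13 smooth muscle, 3 of 18 ciliated and 2 of 11 secretory markers. For endothelial and immune cell markers they became 1 of 11 and 1 of 20. The cause was not tested. No paired analysis was possible because the labels give no replicate numbers that the groups share. Depth limits EGR3, with 0 to 5 reads per library, and EGR2 and FOSB.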

Other observations

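Some early response genes had their highest value in SF/SCL replicate 3. The 3 given here were chosen after their values were seen, and their height in that library was not tested. They belong to the list of other early response genes, in which limma gave 0 genes with an adjusted p under 0.05 between the groups. ID1, an inhibitor of bHLH factors induced by BMP signals, had 225 and 164 normalized reads in LF/LCL, against 42.6, 90.2 and 905 in SF/SCL, with an SD of log2(value + 1) of 1.63. DUSP5, a nuclear phosphatase of ERK, had 23.5 and 50.3 in LF/LCL, against 19.8, 80.8 and 114 in SF/SCL, with an SD of 1.07. ZFP36, which speeds the decay of short-lived messengers, had 972 to 1017 in 4 libraries and 1719 in SF/SCL replicate 3, with an SD of 0.36. The SD of FOS was 1.36, and FOS and EGR1 were highest in LF/LCL replicate 1.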
